A study of Mus musculus with 16 samples.

Results

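The genes of the tumour necrosis factor (TNF) superfamily, its ligands and the receptors they bind, were followed in the colon of mouse pups at weaning after C-section delivery (CSD) or vaginal delivery (VD). The family was taken as all genes of the array whose symbol begins with Tnfsf or Tnfrsf, plus Tnf, Lta, Ltb, Ltbr and Fasl. This gave 37 of the 36870 gene names that are not controls. All 37 passed the filter on dim probes and were among the 36711 genes tested, and 34 of them were also in the gene matrix that the authors deposited. Members carrying other names, such as Cd40 and Fas, were kept apart as a list of companions.

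Colon RNA of 16 RjOrl:SWISS pups, an outbred stock kept free of specific pathogens, was hybridised to 1-colour Agilent mouse arrays, 1 array per pup. The 8 CSD pups (4 females and 4 males) were removed by hysterectomy close to term and nursed by foster mothers that had given birth vaginally, and the 8 VD pups (2 females and 6 males) were born vaginally and exchanged between mothers. The CSD pups came from litters 3 and 4, with 4 pups each, and the VD pups from litter 5, with 5 pups, and litter 6, with 3 males. Each litter belonged to a single group, so that delivery mode and litter cannot be told apart beyond the spread between litters, and the labels do not give the foster mothers. Both of the 2 slides carried 4 arrays of either group. Between 58.7% and 64.9% of the spots of an array were marked by the scanner software as well above background. All 7 colonocyte markers were above background, and of 6 markers of small intestine Lct, Sis and Apoa4 were above it on no array, Alpi on 3 CSD and 4 VD arrays, Defa24 on 5 CSD and 6 VD arrays, and Fabp6 on all 16.

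Ligands of the family are mostly trimers on the cell surface or shed from it, and they cluster receptors that recruit TRAF adaptors or death domain proteins. From there the signal runs to NF-kB or to caspases. In the gut, TNF and its receptors are known for inflammation, lymphotoxin and RANKL for the building of lymphoid tissue and M cells, and BAFF and its receptors for the survival of B and plasma cells.

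Levels are given as log2 intensity, normalised so that all arrays share one distribution, and a difference is the log2 fold change of CSD minus VD from a linear model with sex and litter. Of the 37 members, 30 were well above background on every array. Tnfsf4, Tnfsf18 and Tnfrsf8 were above it on no array, and their estimates are not described singly and enter only the counts and the median over members. The other 4 were above it on some arrays: Tnfsf11 on 3 CSD and 8 VD arrays, Tnfrsf9 on 4 CSD and 8 VD arrays, Fasl on 4 VD arrays and Tnfrsf26 on 1 VD array.

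No family member differed between CSD and VD pups at an adjusted p-value under 0.05, where 1.25% of all genes did. At a limit of 0.1, which 3.07% of all genes passed, there were 2, Tnfrsf13b and Tnfsf9. At an unadjusted p-value under 0.05, 11 of the 37 members (29.7%) were lower in CSD pups, against 7.09% of all genes, and no member was higher, against 7.37%. The 11 were Tnfrsf13b, Tnfsf9, Lta, Tnfsf11, Tnfrsf13c, Tnfrsf17, Tnfsf12, Tnfsf14, Fasl, Ltb and Tnfrsf23. The estimate was below 0 for 27 members, 73% of the family, and the median was -0.08, beside 48.3% and a median of 0.0029 for all genes. Among the 34 members above background on at least 1 array, 26 estimates were below 0 and the median was -0.10. Fasl and Tnfrsf26 entered this set through VD arrays alone, where their levels were higher, so that the filter itself favoured estimates below 0. Nothing is concluded from this subset. Among the 15 ligands 13 estimates were below 0, and among the 21 receptors 13. The CSD and VD pups overlapped in every member, and 0.493% of all genes had groups that did not overlap. Both CSD litter means lay below both VD litter means in 23 members (62.2%, against 20.3% of all genes) and above them in 2 (21.7% of all genes). RNA was taken from whole colon, in which fewer cells of a type and less RNA per cell cannot be told apart.

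**Figure D1:**
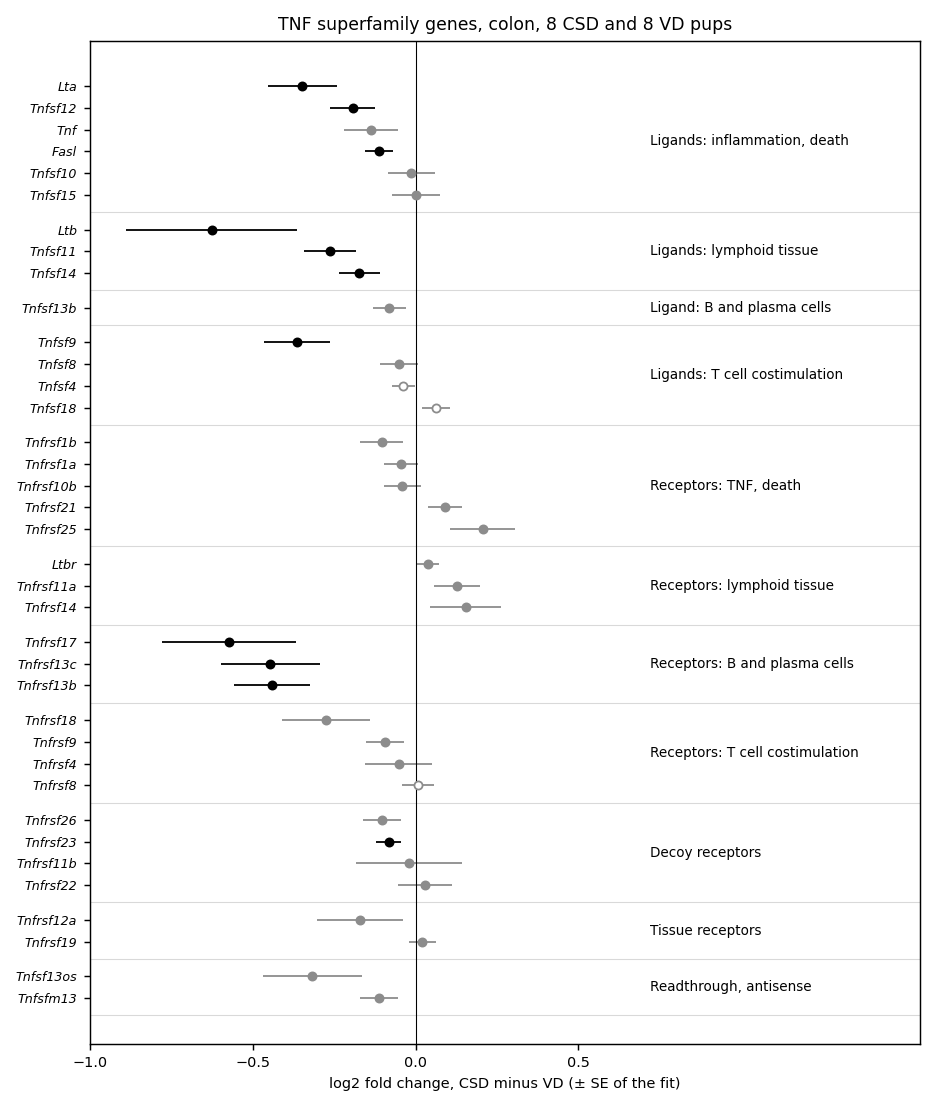
Log2 fold change of CSD minus VD for the 37 members, with the standard error of the fit as bars, grouped by role; black points have an unadjusted p-value under 0.05, grey points do not, and open points are genes above background on no array. The 11 black points all lie left of 0, and the receptors of B and plasma cells and Ltb lie farthest to the left.

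The counts depended on which litters entered. With litter 6 left out, 6 of 37 members (16.2%) were called, where 6.17% of all genes were, and all 6 were lower in CSD pups: Tnfsf9 (-0.45, adjusted p = 0.00569), Lta (-0.41, adjusted p = 0.0112), Tnfrsf13c (-0.58, adjusted p = 0.016), Tnfrsf13b (-0.44, adjusted p = 0.0386), Tnfsf11 (-0.25, adjusted p = 0.0428) and Tnf (-0.22, adjusted p = 0.0454). In that comparison 10.7% of all genes were lower at an unadjusted p-value under 0.05, against 14 of the 37 members (37.8%). With litter 5 left out no member was called, where 0.515% of all genes were, and 5 members (13.5%) were lower at an unadjusted p-value under 0.05, against 6.3% of all genes. Without litter 3 or 4 no member was called either, and 8 and 10 members (21.6% and 27%) were lower at an unadjusted p-value under 0.05, against 7.01% and 6.29% of all genes. Leaving out 1 pup brought at most 1 member past the threshold: Tnfsf9 without VD pup 7 (adjusted p = 0.0238) and Lta without VD pup 8 (adjusted p = 0.0467).

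**Figure D2:**
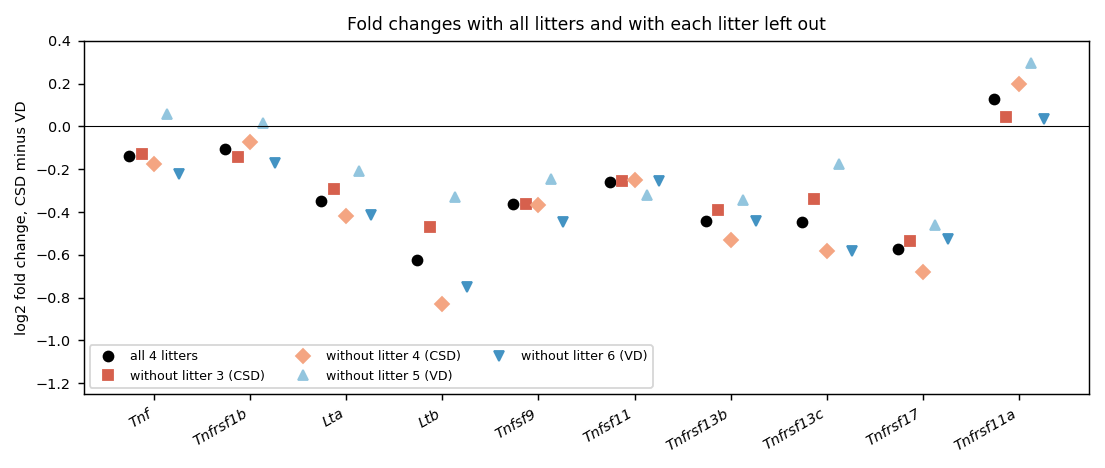
Log2 fold change of CSD minus VD (vertical axis) of 10 members with all 4 litters and with each litter left out in turn; each point is the estimate of 1 fit. Tnf and Tnfrsf1b reached values just above 0 without litter 5, while Lta, Ltb, Tnfsf9, Tnfsf11, Tnfrsf13b, Tnfrsf13c and Tnfrsf17 stayed below 0 in all 5 fits.

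Among the ligands of inflammation and cell death, 5 of 6 had estimates below 0, and 3 of them an unadjusted p-value under 0.05. Tnf, the founding cytokine of the family, had a level between 7.05 and 7.44 (median 7.34) in CSD pups and between 7.09 and 7.72 (median 7.45) in VD pups. The groups overlapped widely, with CSD pup 2 and VD pup 8 both at the bottom, although 5 VD pups lay above every CSD pup. The fold change of -0.14 (SE 0.08) did not pass the test (adjusted p = 0.488). It changed sign without litter 5 (0.06, adjusted p = 0.848). The mean was 7.28 in litter 3, 7.32 in litters 4 and 6, and 7.53 in litter 5. The 2 Tnf probes gave -0.17 and -0.10.

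Lta, which encodes lymphotoxin alpha, ranged from 6.85 to 7.51 (median 7.17) in CSD pups and from 7.23 to 7.91 (median 7.54) in VD pups. Of the CSD pups 5 lay below every VD pup, and CSD pups 1, 6 and 9 lay inside the VD range. The fold change was -0.35 (SE 0.11, adjusted p = 0.125), and it was -0.21 without litter 5 (adjusted p = 0.618). Tnfsf12 encodes TWEAK, a ligand linked to tissue repair, and it ranged from 7.46 to 7.86 (median 7.61) in CSD pups and from 7.54 to 7.96 (median 7.82) in VD pups. Its groups overlapped over most of their range, and the fold change was -0.19 (SE 0.07, adjusted p = 0.194). It was -0.31 without litter 5 (adjusted p = 0.158) and -0.12 without litter 6 (adjusted p = 0.278). For Fasl, the ligand of the death receptor Fas, no CSD array and 4 VD arrays were above background, so that no fold is given (levels of 6.24 to 6.41 in CSD pups and 6.28 to 6.54 in VD pups, adjusted p = 0.217). Tnfsf10 (TRAIL) and Tnfsf15 (TL1A), the other 2 of the group, had estimates of -0.01 and 0.0016.

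The 3 ligands of lymphoid tissue, Ltb, Tnfsf11 and Tnfsf14, all had estimates below 0 at an unadjusted p-value under 0.05. Ltb, which encodes lymphotoxin beta, the subunit that anchors lymphotoxin to the membrane, is described beside the rule for named genes because it had the lowest estimate of the family, and it was chosen after its values were seen. Its level ran from 10.57 to 12.08 (median 11.42) in CSD pups and from 11.39 to 12.83 (median 12.09) in VD pups. The 4 lowest pups were CSD pups and the 4 highest were VD pups, with the others mixed. The fold change was -0.63 (SE 0.26, adjusted p = 0.274), and it lay between -0.43 and -0.74 with any 1 pup left out. Without litter 5 it was -0.33 (adjusted p = 0.771), and without litter 4 it was -0.83 (adjusted p = 0.271).

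Tnfsf11, which encodes RANKL, the signal for M cells in the epithelium over lymphoid follicles, ranged from 6.11 to 6.42 (median 6.24) in CSD pups and from 6.36 to 6.88 (median 6.47) in VD pups. Of the CSD pups 6 lay below every VD pup, and only 3 CSD arrays had a signal above background, against all 8 VD arrays. The fold change was -0.26 (SE 0.08, adjusted p = 0.125). For so dim a gene its size depended on the scale: it was -0.65 in the deposited matrix (adjusted p = 0.144) and -1.16 with scanner-corrected intensity (adjusted p = 0.145), where background is subtracted by the scanner software, and it was not called on either. Tnfsf14, which encodes LIGHT, was at 6.39 to 6.81 (median 6.62) in CSD pups and 6.71 to 6.91 (median 6.78) in VD pups, and 5 CSD pups lay below every VD pup. Its fold change was -0.17 (SE 0.06, adjusted p = 0.203). With scanner-corrected intensity the fold changes of several other members were larger in size too, none of them called: -0.42 for Tnfsf14, -0.29 for Tnf, -0.55 for Lta, -0.72 for Tnfrsf13b, -0.90 for Tnfrsf17 and -0.34 for Tnfrsf23. Above 0, those of Tnfrsf14 (0.25, adjusted p = 0.652) and Tnfrsf19 (0.08, adjusted p = 0.827) were larger as well.

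Ltb, Tnf and Lta are neighbours on chromosome 17, where the positions of the array (mm9) put the Ltb probe at chr17:35333097-35333156, the Tnf probes at chr17:35336967-35337026 and chr17:35336795-35336854 and the Lta probe at chr17:35340275-35340334. Ltb is read from the plus strand and the other two from the minus strand. The 250 bases before the start of each gene (RefSeq, GRCm38.p6, in the direction of transcription) are shown because these 3 neighbours are the classical members of the family, and capitals mark matches to the kappa B consensus, the site of NF-kB, searched on both strands.
Ltb, chr17:35194257-35194506, plus strand: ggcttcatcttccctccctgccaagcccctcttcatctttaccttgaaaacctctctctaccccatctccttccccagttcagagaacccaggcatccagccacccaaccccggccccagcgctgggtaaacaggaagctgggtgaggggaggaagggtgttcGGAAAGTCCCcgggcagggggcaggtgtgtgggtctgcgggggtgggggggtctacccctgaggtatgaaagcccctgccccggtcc
Tnf, chr17:35202008-35202257, minus strand: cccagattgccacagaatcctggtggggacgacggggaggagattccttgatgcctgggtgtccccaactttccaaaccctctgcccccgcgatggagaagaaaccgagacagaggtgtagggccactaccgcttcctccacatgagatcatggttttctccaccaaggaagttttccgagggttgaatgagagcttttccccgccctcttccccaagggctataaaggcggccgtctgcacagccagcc
Lta, chr17:35205352-35205601, minus strand: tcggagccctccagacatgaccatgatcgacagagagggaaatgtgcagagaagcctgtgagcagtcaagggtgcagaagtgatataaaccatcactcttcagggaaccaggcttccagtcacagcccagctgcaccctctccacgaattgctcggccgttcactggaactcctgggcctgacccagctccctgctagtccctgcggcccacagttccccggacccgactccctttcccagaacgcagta
The Ltb window held 1 match, starting 87 bases before the start of the gene, and the Tnf and Lta windows held none. Promoters of 29 members were in the table, and 4 of their 33 windows (12.1%) held a match, beside 7.25% of all 32851 windows of that length. A match is a likeness of letters and not a measured site.

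All 3 receptors of lymphoid tissue had estimates above 0. Ltbr, the lymphotoxin beta receptor, was between 13.36 and 13.50 in CSD pups and between 13.32 and 13.50 in VD pups, and its fold change was 0.04 (SE 0.03, adjusted p = 0.673). Tnfrsf11a (RANK), the receptor of RANKL, lay between 11.37 and 11.72 (median 11.53) in CSD pups and between 11.20 and 11.61 (median 11.42) in VD pups. Its ranges overlapped over most of their length, and the fold change was 0.13 (SE 0.07, adjusted p = 0.431). Without litter 3 or litter 6 it was 0.04 (adjusted p = 0.852 and 0.75), and without litter 5 it was 0.29 (adjusted p = 0.153). The 3 Tnfrsf11a probes gave 0.03, 0.15 and 0.20 (adjusted p = 0.878, 0.547 and 0.226). The last was the 1 family probe higher in CSD pups at an unadjusted p-value under 0.05. It was called without litter 5 (0.44, adjusted p = 0.0434). Tnfrsf14 (HVEM), a receptor of LIGHT, had a fold change of 0.15 (SE 0.11, adjusted p = 0.573), which lay between 0.07, without CSD pup 8, and 0.25, without CSD pup 6, with any 1 pup left out, and turned to -0.03 without litter 3 (adjusted p = 0.939). VD pup 8, at 6.89, lay below all the other pups.

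**Figure D3:**
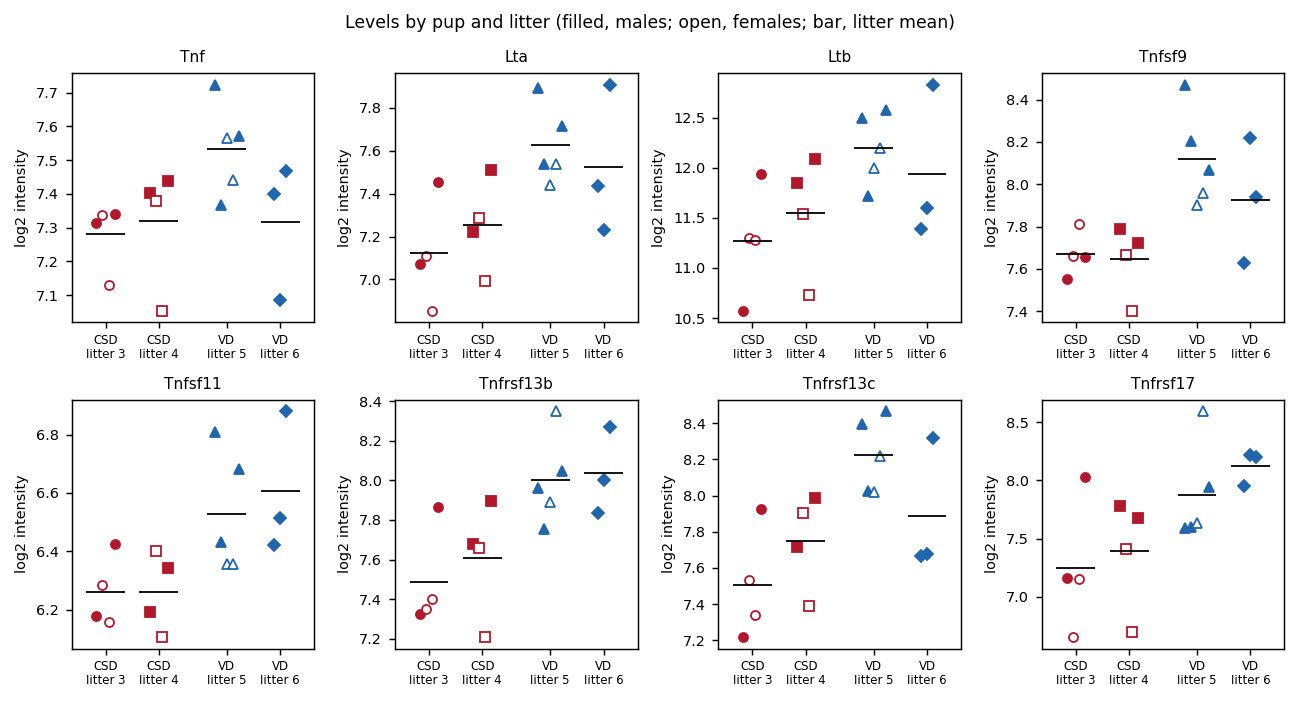
Levels (log2 intensity) of Tnf, Lta, Ltb, Tnfsf9, Tnfsf11, Tnfrsf13b, Tnfrsf13c and Tnfrsf17 in each of the 16 pups, by litter; each point is 1 pup, filled for males and open for females, and the bars are litter means. Except for Tnf, both VD litter means lie above both CSD litter means, while single pups of the 2 groups overlap in all 8 panels.

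The 3 receptors of B and plasma cells, Tnfrsf13b, Tnfrsf13c and Tnfrsf17, had estimates between -0.44 and -0.57, each at an unadjusted p-value under 0.05. Tnfrsf13b encodes TACI, a receptor of BAFF and APRIL on B cells and plasma cells, and it had the smallest p-value of the family. Its level ranged from 7.21 to 7.89 (median 7.53) in CSD pups and from 7.76 to 8.35 (median 7.98) in VD pups. The 6 lowest pups were all CSD pups, while CSD pups 6 and 9 lay among the VD pups. The fold change was -0.44 (SE 0.12, adjusted p = 0.0806). The exact two-sided permutation test over the 12870 assignments of pups, which takes neither litter nor sex into account, gave an unadjusted p = 0.00171.

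Tnfrsf13b was measured by 3 probes, which disagreed in size. Their first 30 of 60 bases are shown to tell them apart, with positions in mm9 on chromosome 11.
A_51_P106269, chr11:60954968-60960376: gcaccagggatctgagcatggtccaggatt
A_55_P1981972, chr11:60960405-60960464: atcttctgctgtttcttggtggccttggcc
A_55_P1981964, chr11:60962770-60962829: cctggagaatatagcctggctccatttgca
The positions of the first span more than its 60 bases, so that it crosses a splice junction, and it and the second were assigned by the array's annotation to the transcript NM_021349. The third was assigned to another transcript model, ENSMUST00000010286, at base 2451 of it. At that last probe CSD pups ranged from 8.001 to 9.42 (median 8.65) and VD pups from 9.28 to 9.997 (median 9.56). Of the CSD pups 6 lay below every VD pup, and CSD pups 6 and 9 lay among the VD pups. It was the 1 probe of the 62 family probes called (-0.84, SE 0.20, adjusted p = 0.0427), where 1.74% of all probes were called. At an unadjusted p-value under 0.05, 13 family probes (21%, against 7.01% of all probes) were lower in CSD pups and 1 was higher (8.1% of all probes). The first probe gave -0.29 (SE 0.10, adjusted p = 0.163) and was above background on 3 CSD and 6 VD arrays, and the second gave -0.19 (SE 0.07, adjusted p = 0.218). Whether the fold changes differed between probes was not tested. The call at the third probe was lost without any 1 of 10 pups (CSD 1, 2, 3, 5, 7 and 8, VD 4, 5, 6 and 11), with an adjusted p of at most 0.131 and a fold change from -0.69 to -0.96 over all 16 fits. It was also lost without litter 3, 4 or 5 (-0.77, -0.98 and -0.58, adjusted p = 0.103, 0.0748 and 0.39).

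**Figure D4:**
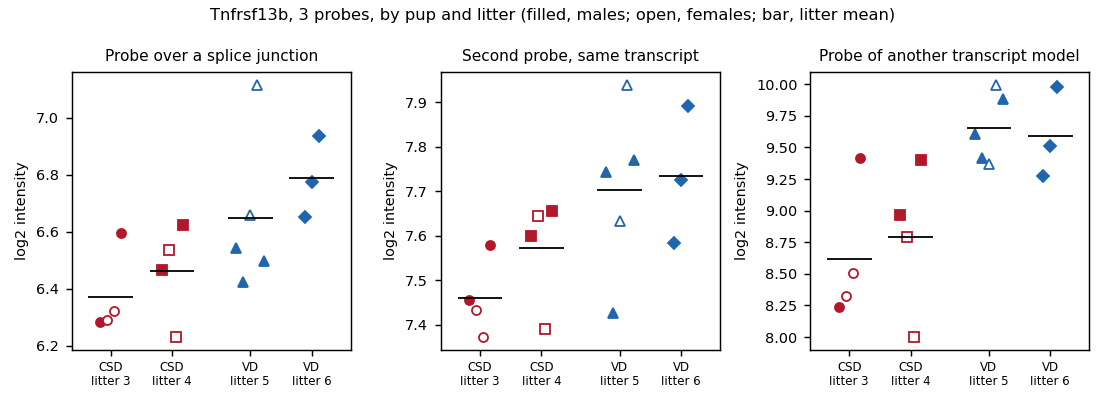
Log2 intensity of the 3 Tnfrsf13b probes in each pup, by litter; points are pups, filled for males and open for females, and bars are litter means. The vertical axes differ, and at all 3 probes both CSD litter means lie below both VD litter means, with the widest gap at the probe of the other transcript model.

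Tnfrsf13c encodes the BAFF receptor of B cells, and it ranged from 7.22 to 7.99 (median 7.63) in CSD pups and from 7.66 to 8.47 (median 8.12) in VD pups. The 4 lowest pups were CSD pups, and 6 VD pups lay above every CSD pup. Its fold change was -0.45 (SE 0.15, adjusted p = 0.163), and it fell in size to -0.17 without litter 5 (adjusted p = 0.774). Its brighter probe gave -0.80 and the other, above background on 3 CSD and 5 VD arrays, gave -0.10. Tnfrsf17, which encodes BCMA, the receptor of long-lived plasma cells, was named after its values were seen. It ranged from 6.65 to 8.03 (median 7.29) in CSD pups and from 7.59 to 8.60 (median 7.95) in VD pups, with 5 CSD pups below every VD pup. Its fold change was -0.57 (SE 0.21, adjusted p = 0.189), and it lay between -0.36, without VD pup 4, and -0.69 with any 1 pup left out.

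Tnfsf13b, which encodes BAFF, the ligand of these receptors, was at 7.48 to 7.81 (median 7.63) in CSD pups and 7.64 to 7.85 (median 7.74) in VD pups. The groups overlapped, and the fold change was -0.08 (SE 0.05, adjusted p = 0.505). It lay between -0.11 and -0.05 with any 1 pup left out. By its brightest probe it was -0.15 (adjusted p = 0.383), and with scanner-corrected intensity -0.14 (adjusted p = 0.545). The ligand APRIL has no gene name of its own on the array: the probe named Tnfsfm13, for the readthrough gene, lists transcripts of both, and its fold change was -0.11 (SE 0.06, adjusted p = 0.398). Tnfsf13os, an antisense RNA of that locus, was at -0.32 (SE 0.15, adjusted p = 0.356).

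In the T cell costimulation group 1 ligand stood apart. Tnfsf9, which encodes the ligand of the receptor Tnfrsf9 on activated T cells, was at 7.40 to 7.81 (median 7.66) in CSD pups and 7.63 to 8.47 (median 8.01) in VD pups. Of the VD pups 7 lay above every CSD pup, and VD pup 7 was the exception. The fold change was -0.36 (SE 0.10, adjusted p = 0.0919). The exact permutation test, which takes neither litter nor sex into account, gave an unadjusted p = 0.00171. This test is given only for Tnfrsf13b and Tnfsf9, which had the smallest p-values of the family. Its receptor Tnfrsf9, above background on 4 CSD arrays, had a fold change of -0.09 (SE 0.06, adjusted p = 0.503), or -0.45 with scanner-corrected intensity (adjusted p = 0.563). Tnfrsf18 (GITR), a receptor of regulatory T cells, was at 8.21 to 8.86 (median 8.51) in CSD pups and 8.40 to 9.27 (median 8.79) in VD pups, with a fold change of -0.27 (SE 0.13, adjusted p = 0.373). Tnfsf8 and Tnfrsf4 had estimates of -0.05 each.

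The receptors of TNF itself differed little. Tnfrsf1a, the receptor found on most cells, was at 10.92 to 11.36 (median 11.15) in CSD pups and 11.07 to 11.32 (median 11.21) in VD pups, and its fold change was -0.04 (SE 0.05, adjusted p = 0.77), with a positive sign without litter 4 or 5 (0.0097 and 0.007). Tnfrsf1b, the receptor more common on leukocytes, was at 8.56 to 9.01 (median 8.78) in CSD pups and 8.76 to 9.16 (median 8.90) in VD pups. Of the CSD pups 4 lay below every VD pup, and the fold change was -0.10 (SE 0.07, adjusted p = 0.505), or 0.02 without litter 5 (adjusted p = 0.957). Tnfrsf25, the receptor of TL1A, had the highest estimate of the family, 0.21 (SE 0.10, adjusted p = 0.358), from levels of 9.56 to 10.12 (median 9.97) in CSD pups and 9.45 to 10.06 (median 9.65) in VD pups. With any 1 pup left out Tnfrsf1a lay between -0.08 and -0.02 and Tnfrsf1b between -0.13 and -0.06. Tnfrsf21 was at 0.09 (SE 0.05, adjusted p = 0.458), or between 0.05 and 0.11 with any 1 pup left out, and Tnfrsf10b, the TRAIL receptor, at -0.04.

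The decoy and tissue receptors made up the remainder. Tnfrsf23 was at 6.80 to 6.98 (median 6.83) in CSD pups and 6.84 to 7.02 (median 6.95) in VD pups, with a fold change of -0.08 (SE 0.04, adjusted p = 0.339). Of its 3 probes 1 was above background on every array (-0.15, adjusted p = 0.405), 1 on 2 VD arrays and 1 on none, and no single probe had an unadjusted p-value under 0.05. Tnfrsf26 was above background on 1 VD array and is given no fold (adjusted p = 0.449). Tnfrsf12a (Fn14), the receptor of TWEAK, had a fold change of -0.17 (SE 0.13, adjusted p = 0.609), which was 0.05 without litter 5 (adjusted p = 0.927). Tnfrsf19 (0.02), Tnfrsf22 (0.03) and Tnfrsf11b (-0.02), which encodes the RANKL decoy osteoprotegerin, lay near 0.

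The same pups were lowest in several members, a pattern chosen after the values were seen. CSD pups 2, 3, 5 and 8 held the 4 lowest levels of Ltb, Lta, Tnfrsf13b, Tnfrsf13c and Tnfrsf17, and also of the plasma cell marker Jchain. Pups 3, 5 and 8 were from litter 3 and pup 2 from litter 4. CSD pups 6 and 9 ranked between 8 and 14 of the 16 pups in those 6 genes, with rank 1 the lowest. Other members with an unadjusted p-value under 0.05 had another order. CSD pup 5 ranked 14 in Tnfsf14, 13 in Tnfsf12, 11 in Fasl and 9 in Tnfsf9, and CSD pups 2, 3 and 8 ranked 8, 13 and 9 in Tnfrsf23.

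Estimates of B, plasma and T cell markers were mostly below 0. All 7 B cell markers had estimates below 0 (median -0.48), 4 of them at an unadjusted p-value under 0.05, and their summed level, in which Cd79b was the brightest, ran from 10.77 to 13.15 in CSD pups and from 11.66 to 12.88 in VD pups. Of the 6 plasma cell markers 4 had estimates below 0, all at an unadjusted p-value under 0.05 (median -0.49), and their summed level, led by Jchain, ran from 12.91 to 15.50 and from 14.69 to 16.17. All 7 T cell markers had estimates below 0 (median -0.35), and their summed level, led by Cd3d, ran from 10.52 to 11.41 and from 10.94 to 12.44. Of 6 natural killer and cytotoxic cell markers 5 had estimates below 0 (median -0.03), with none at an unadjusted p-value under 0.05 and Nkg7 at -0.27 (adjusted p = 0.505). All of these markers were above background in at least 1 array and none was called. The smallest p-value was that of Fcer2a in B cells (-0.57, adjusted p = 0.075), Irf4 in plasma cells (-0.37, adjusted p = 0.0809) and Cd4 in T cells (-0.10, adjusted p = 0.282). All 7 colonocyte markers had estimates above 0 (median 0.24), with Slc26a3 at 0.45 (adjusted p = 0.113). The part of these cells in the differences of the family was not tested.

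**Figure D5:**
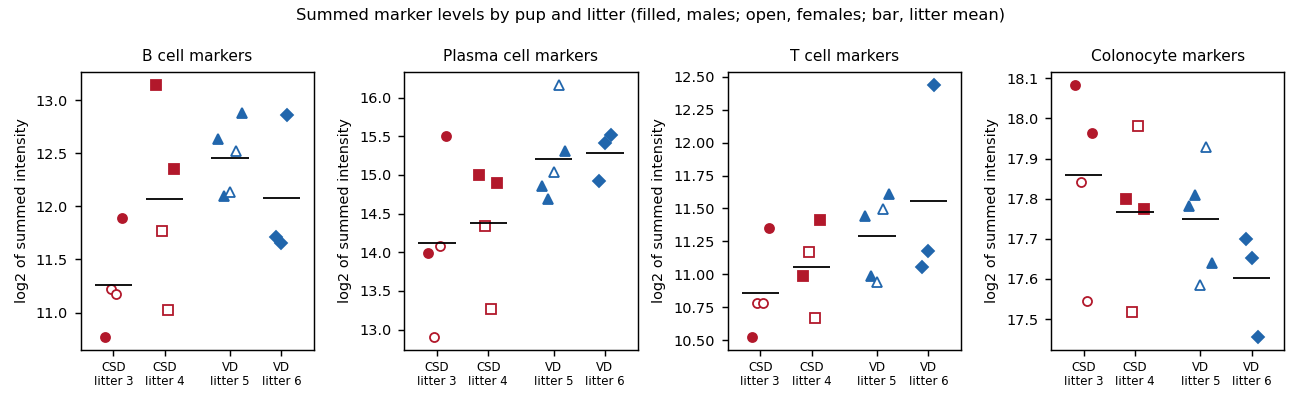
Log2 of the summed intensity of the B cell, plasma cell, T cell and colonocyte markers in each pup, by litter; points are pups, filled for males and open for females, and bars are litter means. The plasma cell panel has 5 CSD pups below every VD pup, and the CSD pup at 13.15 is the highest of all in the B cell panel.

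Of 91 genes in 7 lists of signalling partners and targets of the family, 2 (2.2%, against 1.25% of all genes) were called, both lower in CSD pups. At an unadjusted p-value under 0.05, 15 (16.5%) were lower, against 7.09% of all genes, and 1 was higher, against 7.37%. Traf5, an adaptor of several family receptors in lymphocytes, was at 8.90 to 9.29 (median 9.03) in CSD pups and 9.23 to 9.58 (median 9.36) in VD pups. In each group 1 pup reached into the range of the other, and the fold change was -0.30 (SE 0.06, adjusted p = 0.0343). The call was kept in 9 of 16 fits with 1 pup left out (adjusted p between 0.0212 and 0.0961) and lost without CSD pups 2, 3, 7 or 8 or VD pups 4, 5 or 11. It was also lost without litter 3, 4 or 5 (-0.29, -0.32 and -0.26, adjusted p = 0.0986, 0.0823 and 0.313). In the deposited matrix (-0.33, adjusted p = 0.0687) and with scanner-corrected intensity (-0.34, adjusted p = 0.0533) it was lost too. Among the 29 adaptors, kinases and ubiquitin enzymes 16 had estimates below 0 and 13 above it, with a median of -0.01. Below 0 were Map3k14, the kinase of the alternative NF-kB pathway (-0.16, adjusted p = 0.129), and Fadd (-0.17, adjusted p = 0.114). Tab2 (0.08, adjusted p = 0.326) was the 1 gene of this list higher at an unadjusted p-value under 0.05. Map3k14, Fadd and Tab2 were named after their values were seen.

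All 10 NF-kB subunits and inhibitors had estimates below 0, with a median of -0.07, and 3 had an unadjusted p-value under 0.05. Nfkb2, the subunit of the alternative pathway, was at 10.21 to 10.55 (median 10.46) in CSD pups and 10.38 to 10.91 (median 10.67) in VD pups, with a fold change of -0.23 (SE 0.08, adjusted p = 0.159). It was called without litter 6 (-0.33, adjusted p = 0.00616) and near 0 without litter 5 (-0.01, adjusted p = 0.971). Nfkbie, an inhibitor of NF-kB, had a fold change of -0.46 (SE 0.17, adjusted p = 0.185). Without litter 3 it was -0.26 (adjusted p = 0.556), and without litter 4 it was -0.66 (adjusted p = 0.161).

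Among 22 TNF target genes 16 had estimates below 0 (median -0.04) and none was called. Il6, Csf3 and Sele, among those below 0, and Csf2, above 0, were above background on no array. Cxcl10 (0.30, adjusted p = 0.437) and Sod2 (0.26, adjusted p = 0.352) lay above 0, and both were named after their values were seen. Ccl20, the chemokine that draws Ccr6-bearing cells to the follicle epithelium, was at 8.93 to 10.61 (median 9.89) in CSD pups and 9.77 to 11.19 (median 10.81) in VD pups. Its groups overlapped, and the fold change was -0.89 (SE 0.26, adjusted p = 0.103), or -0.35 without litter 5 (adjusted p = 0.704). Ccl20 was called without VD pup 7 (adjusted p = 0.0493) or litter 6 (-1.18, adjusted p = 0.00764). Icam1, an adhesion molecule, was at -0.28 (SE 0.10, adjusted p = 0.159), and was called without litter 6 (-0.32, adjusted p = 0.0302) and was at -0.21 without litter 5 (adjusted p = 0.549). Of 8 lymphotoxin targets of lymphoid tissue 7 had estimates below 0 (median -0.35), with the chemokines Ccl21a at -0.48 (SE 0.17, adjusted p = 0.192) and Ccl19 at -0.79 (SE 0.34, adjusted p = 0.286). Without litter 3 they were at -0.17 and -0.49 (adjusted p = 0.555 and 0.551), and without litter 4 at -0.80 and -1.09 (adjusted p = 0.0768 and 0.265).

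All 8 RANKL targets of M cells, a list that shares Ccl20 and Tnfaip2 with the TNF targets, had estimates below 0 (median -0.27). Anxa5, an annexin found in M cells and in many other cells, was at 12.52 to 13.11 (median 12.83) in CSD pups and 13.13 to 13.43 (median 13.26) in the 7 VD pups with a value. These groups did not overlap, and the fold change was -0.38 (SE 0.08, adjusted p = 0.0399), but the call was lost without any 1 of 10 pups (CSD 1, 2, 5, 6 and 7, VD 4, 5, 6, 10 and 11, with an adjusted p of at most 0.164) and without litter 4 or 5 (-0.33 and -0.23, adjusted p = 0.219 and 0.333), as well as in the deposited matrix (-0.60, adjusted p = 0.124) and with scanner-corrected intensity (-0.37, adjusted p = 0.0843). Ccr6, a receptor for Ccl20 listed as a marker of group 3 innate lymphoid cells and also present on B cells, was called (-0.80, SE 0.18, adjusted p = 0.0465), and the call was kept in 3 of 16 fits with 1 pup left out, those without CSD pup 9 or VD pups 7 or 8. It was lost without litter 3, 4 or 5 (-0.82, -0.82 and -0.45, adjusted p = 0.111, 0.16 and 0.492). The call was also lost in the deposited matrix (-0.83, adjusted p = 0.0687), with scanner-corrected intensity (-0.83, adjusted p = 0.0891) and with slide in the model (-0.79, adjusted p = 0.0586). The other defining markers Il23r and Il17a were above background on no array. Members with other names showed no call: 6 of 10 were below 0, Cd40 was at -0.17 (SE 0.10, adjusted p = 0.474), or -0.37 with scanner-corrected intensity (adjusted p = 0.513), and Cd40lg, Cd27 and Cd70 were above background on no array. Of the 6 proteases that release ligands and receptors 3 were below 0, with Adam17 at 0.08 (adjusted p = 0.36), or 0.21 by its brightest probe (adjusted p = 0.11), and Furin at -0.07 (adjusted p = 0.368), which was called without litter 6 (-0.12, adjusted p = 0.0116) and positive without litter 5 (0.02, adjusted p = 0.847).

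Sex and litter gave yardsticks for these sizes. Between males and females no member was called, where 0.0599% of all genes were, and 3 members were higher in males at an unadjusted p-value under 0.05 (8.11%, against 2.89% of all genes) and none was lower (3.56% of all genes). Tnfrsf1b had the smallest p-value, with 0.15 (SE 0.07) for males minus females (adjusted p = 0.755). The estimate for males minus females was above 0 in 30 of the 37 members, with a median of 0.07, beside 0.0027 for all genes. The median size of this difference was 0.07 over the members and 0.04 over all genes. Ranges, litter means and counts of pups are not adjusted for sex, and the VD group held more males. The difference by delivery mode did not pass the test of a dependence on sex in any member (0.00272% of all genes did), and at an unadjusted p-value under 0.05 there were 0 members below 0 (2.68% of all genes) and 1 above it (2.03%). Tnfrsf17 came nearest, with a CSD minus VD fold change that was 0.89 (SE 0.36) higher in males than in females on the log2 scale (adjusted p = 0.981), and only 2 VD females stood behind it.

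Between the 2 CSD litters no member was called, where 0.0872% of all genes were. At an unadjusted p-value under 0.05, 2 members were lower in litter 4 (4.07% of all genes) and 1 was higher (3.62%), and the smallest p-value was that of Tnfsf18, which was above background on no array. Between the 2 VD litters no member was called either, where 0.874% of all genes were, although at an unadjusted p-value under 0.05 there were 5 members lower in litter 6 (5.36% of all genes) and 2 higher (6.16%). Tnfrsf11a had the smallest p-value, with -0.28 (SE 0.07) for litter 6 minus litter 5 (adjusted p = 0.0878). Tnf differed by -0.26 between these VD litters (adjusted p = 0.344), which was more than its difference between delivery modes. The median size of the difference over the 37 members was 0.07 in both comparisons of litters (0.05 and 0.06 over all genes) and 0.10 between delivery modes (0.05 over all genes), and the comparisons of litters rest on fewer pups.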

How the data were processed

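Colon RNA of 16 pups was measured on 1 array each. Per the labels, intensities were read by Feature Extraction 12.0.3.2. The authors corrected the intensities (the method is not given in the sources used here), took log2, quantile normalised and tested with limma 3.38, and their deposited log2 matrix was used as an alternative. Here the scanner intensities were processed with limma 3.58.1 in R 4.3.3: normexp with an offset of 50, control and outlier spots left out (59305 of 62976 spots kept before outliers), quantile normalisation, and a filter that kept probes brighter than the lowest 5% of an array on 4 or more arrays (56366 of 56605). Probes of a gene were averaged to 36711 genes, which correlated with the deposited matrix at 0.977 over 26900 genes. The model held delivery mode and sex, with the mother as a random effect (correlation 0.0152, resting on 4 litters), and p-values were adjusted by Benjamini-Hochberg over all genes. The number of arrays limits the precision. The steps were tested on simulated data, in which the correlation within litters was underestimated and false calls exceeded the nominal rate. The simulated spread between litters was small beside that between pups, so that larger differences between litters were not covered. Genes described singly were Tnf and its receptors and, per role or list, those called or the 2 (markers 1) with the smallest p-value. Members and lists were chosen with earlier results of these data known.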

Additional observations from a re-analysis of the deposited data

Results flagged for a closer look

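In 8 of 128 groups of 8 pups, 5 of them among the 74 groups of family members, 1 pup stood apart, with a gap to its neighbour, as a share of the group's range, above Dixon's limit. Chance gives about 1 in 20 groups. Tnfrsf22, a decoy receptor, was high in CSD pup 7 (7.23, gap 0.755 of the range) and in VD pup 11 (7.07, gap 0.574). Tnfrsf11b (osteoprotegerin) was also high in CSD pup 7 (8.62, gap 0.596). Tnfsf8 was high in VD pup 6 (7.19, gap 0.555), and Tnfrsf14 was low in VD pup 8 (6.89, gap 0.605). VD pup 6 also had the highest summed level of T cell markers (12.44, gap 0.555) and of natural killer and cytotoxic cell markers (11.14, gap 0.699). CSD pup 8 had the highest summed level of neutrophil markers (12.66, gap 0.544).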

How the results depend on the processing

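No family member was called under 16 of 18 alternatives, and 2 were called with an adjusted p under 0.1 as the limit or with no sex in the model; with pups or litters left out, the count ran from 0 to 6. The 11 members lower at an unadjusted p under 0.05 became 5 in males only (13.5%, against 4.6% of all genes), 4 on slide 1 alone (10.8%, against 4.12%), 6 on slide 2 alone (16.2%, against 4.73%) and 7 with the replicate block (18.9%, against 4.89%), and ran from 5 to 14 with pups or litters left out. The count of members higher, 0, became 1 with no mother, with no sex and on slide 1 alone, and ran from 0 to 4 with pups or litters left out. The median over members moved to -0.14 with scanner-corrected intensity and scaling to the 75th percentile. The 2 companion calls became 1 with an offset of 16 and 0 with no offset, both scanner-corrected settings, the deposited matrix, litter means, males only, each slide alone and the replicate block, and ran from 0 to 12 with pups or litters left out. The call of the marker Ccr6, which is outside those lists, was lost with an offset of 16 (-0.82, adjusted p = 0.0582) and with no offset (-0.83, adjusted p = 0.0819). The 1 probe call became 0 with scanner-corrected intensity, each slide alone and the replicate block, and ran from 0 to 7 with pups or litters left out. No gene of all was called in males only, with litter means, on slide 2 alone or with the replicate block (0%), so that 0 members says nothing there. The cause was not tested; single slides, males only and litter means hold fewer samples. Probe alternatives other than the planned ones were chosen after seeing the data.

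Some small estimates changed sign. Without litters the values ran from -0.22 to 0.06 (0.0565) for Tnf, -0.10 to 0.0097 for Tnfrsf1a, -0.17 to 0.0173 for Tnfrsf1b, -0.0268 to 0.34 for Tnfrsf14, -0.30 to 0.0475 for Tnfrsf12a and -0.0182 to 0.0973 for Tnfrsf19; they ran from -0.12 to 0.0249 for Furin, and Tnfrsf1a was 0.007 without litter 5. Tnfrsf19 was -0.002 with no sex, -0.0011 with no offset and -0.01 on slide 1 alone, and Tnfrsf12a was 0.0884 on slide 2 alone. The shared pup numbers gave correlations over 0.1 in 2 of 5 pairs, and 2 of 5 CSD pups correlated best with their own number, so that the numbers did not pair the pups.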

Other observations

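Outside the family, 4 of 5 mast cell markers had estimates above 0 (median 0.48), with the protease Tpsb2 at 0.48 (adjusted p = 0.111). Of 6 macrophage markers 4 had estimates below 0, with Cd68 at -0.26 (adjusted p = 0.18), and all 5 endothelial markers were below 0 (median -0.10), with Cdh5 at -0.18 (adjusted p = 0.317). All 4 fat markers were below 0 as well (median -0.22), with Lep at -0.08 (adjusted p = 0.328), and their summed level, led by Cfd, ran from 9.88 to 15.25 in CSD pups and from 12.48 to 15.32 in VD pups. None of these markers was called, and the part of these cells in the differences of the family was not tested.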
